A study of Mus musculus with 38 samples.

Results

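The comparison described here is of the PPARδ agonist GW501516 (GW) with its vehicle in mouse intestinal organoids that carry mutant alleles of both Ppard and Ppara, called the double knockout (DA). Libraries were chosen by the treatment and genotype in the column names of the count table, and 9 of the series' 38 samples entered: 5 with GW and 4 with vehicle. All came from C57BL6 mice with the genotype Ppard-fl/fl; Ppara-null. Crypts were set in 65% matrigel and grown as organoids for 8 days, through 2 passages, with GW at 1 uM or with DMSO alone at 0.1%. The series also holds GW and vehicle libraries of wild-type organoids (WT, 5 and 5), of Ppara-null organoids (A, 5 and 5) and of Ppard-fl/fl organoids (D, 3 and 5), of the same strain and culture. The labels name no recombinase for the floxed Ppard allele, the series' design text calls these organoids knockouts, and neither says if each library is its own animal or culture. The p-values therefore measure the spread between libraries, which may be technical. An additional sample, whose title places it in D and whose genotype label names both genes, was put in no group. Its column could not be told apart from the others named GW in D, so it may be among the 3 used.

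PPARδ (Ppard), PPARα (Ppara) and PPARγ (Pparg) are nuclear receptors that bind fatty acids and pair with retinoid X receptors on DNA, next to genes for fatty acid uptake, storage and oxidation. In the intestinal crypt this programme is best known for the burning of fatty acids in mitochondria, and PPARδ agonists such as GW501516 are used to switch it on. PPARα and PPARδ share many of these target genes, so a cell without either is the test of what the compound does by other routes. Organoids grown from crypts hold stem cells, dividing progenitors and differentiated epithelial cells.

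Polyadenylated RNA was read as tags from the 3′ end of transcripts. The GW libraries carried the numbers 4, 15, 32, 44 and 56 in their column names and the vehicle libraries the numbers 1, 11, 28 and 40. Values by library are given in that order throughout, as CPM, which is counts divided by a library's total and multiplied by 1e+06. Totals were 395033 to 512122 counts with GW and 486362 to 539430 with vehicle (exact two-sided permutation test, p = 0.0952). Mitochondrially encoded transcripts took 8.08% to 9.71% with GW and 7.86% to 9.98% with vehicle (exact two-sided permutation test, p = 0.540). Xist exceeded the Y-linked counts in GW libraries 15 and 32 and in vehicle libraries 11 and 28, and the reverse held in the other 3 GW and 2 vehicle libraries. On the first principal component of the 9 libraries, with 22.7% of the variance, the 4 Xist libraries had positive scores and the other 5 negative ones. Numbers 1 to 36 held 3 libraries of each treatment, and numbers 37 to 60 held 2 with GW and 1 with vehicle. Split at gaps of 3 or more, the numbers of the 37 libraries used fall into 6 sets. Of these, 4 hold both treatments in DA (GW 4 with vehicle 1, 15 with 11, 32 with 28 and 44 with 40). The 20 columns of the count table that were not used were left out of this split, so a gap can be where they were dropped. No label says what a set shares. The median correlation of log2 CPM across genes was 0.923 over 20 GW-vehicle pairs, 0.917 over 10 GW pairs and 0.928 over 6 vehicle pairs. These medians are not balanced for sets, since only GW-vehicle pairs can share one. The 4 pairs within a set had 0.935 to 0.945, above the highest same-treatment pair (0.934). Some GW-vehicle pairs across sets also lay above it, such as 4 with 11 (0.942). No pair agreed within sampling noise, as the chi-square over its degrees of freedom was 2.04 to 5.70. Immune marker genes summed to 12 counts over the GW libraries and 4 over the vehicle libraries, with 9 of 12 genes at 0, and tuft cell markers summed to 7 and 3 counts, with 7 of 11 genes at 0.

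GW changed no gene past the threshold in DA. Of 4902 genes tested, 0 rose and 0 fell (0% in each direction) at an adjusted p of 0.05 (edgeR quasi-likelihood test, Benjamini-Hochberg). The smallest adjusted p was 0.9998 (edgeR quasi-likelihood test, Benjamini-Hochberg). At an unadjusted p under 0.05 there were 86 genes higher (1.75%) and 71 lower (1.45%), together 157 (3.20%). The same threshold on limma-trend gave 145 genes and on DESeq2 101. limma-trend passed 0 genes after adjustment. DESeq2 passed 1, the pseudogene Rpl21-ps15, which had 81 counts in GW library 32 and 0 in the other 8 libraries. In the same model GW raised 20 genes in WT (0.408%), raised 14 (0.286%) and lowered 1 (0.0204%) in A, and changed 0 in D, where 159 genes (3.24%) were at an unadjusted p under 0.05. The GW effect differed between DA and D past the threshold for 0 genes by edgeR's quasi-likelihood test and for 1 by DESeq2, with 135 genes (2.75%) at an unadjusted p under 0.05.

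**Figure D1:**
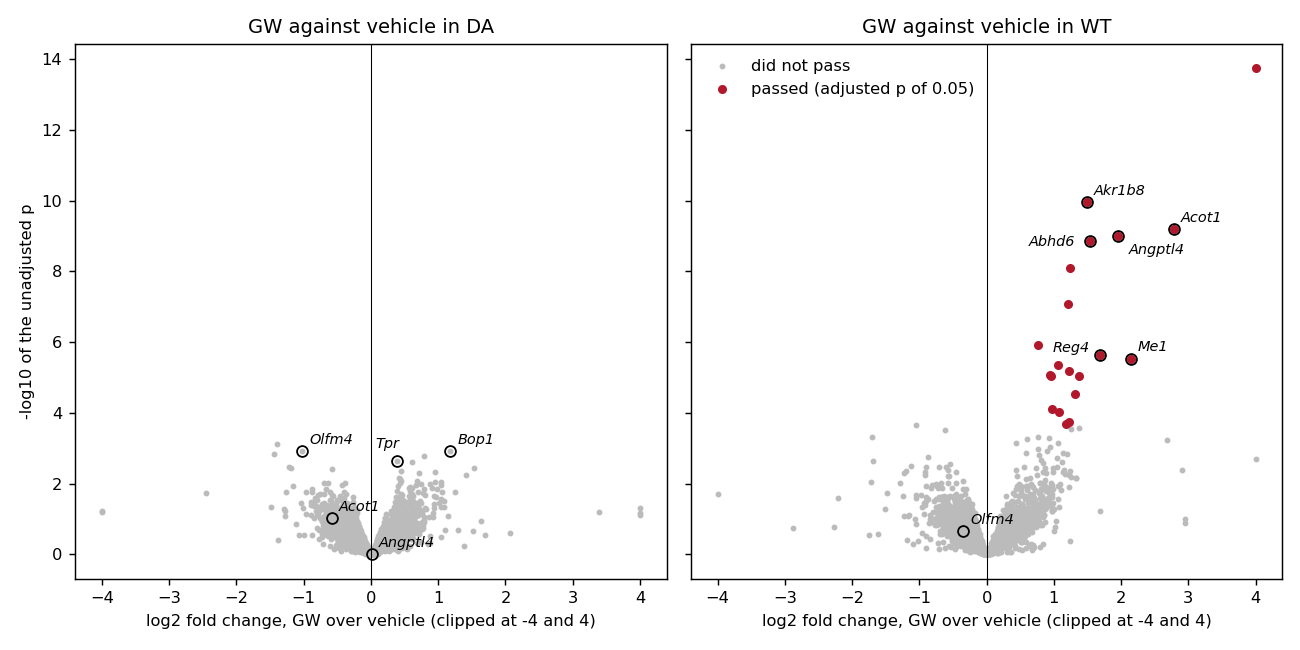
Each point is 1 of 4902 genes, with the log2 fold change of GW over vehicle on the x axis and -log10 of the unadjusted p of edgeR's quasi-likelihood test on the y axis, for DA on the left and WT on the right. No gene passed in DA, and the genes that passed in WT all lie to the right of 0.

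The estimates in DA lay close around no change. The median log2 fold change was -8.17e-04, with 2444 genes above 0 and 2458 at or below it, and the standard deviation over genes was 0.364, against 0.390 in WT. For 3608 genes (73.6%) the 95% interval lay within a log2 fold change of -1 and 1. Among the 1785 genes whose mean log2 CPM was 6 or more, this held for 1746. For 1010 genes (20.6%) it lay within -0.5 and 0.5. All 5 GW libraries were above all 4 vehicle libraries for 25 genes (0.510%) and below them for 17 (0.347%).

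The receptors were read first. Ppara (ENSMUSG00000022383, mm10 chromosome 15, 85734983 to 85802819) had 2, 1, 2, 3 and 1 counts with GW and 1, 0, 2 and 1 counts with vehicle in DA. That is 3.80 ± 1.67 CPM with GW (SD, n = 5) and 2.01 ± 1.68 CPM with vehicle (n = 4) in DA, against 16.4 ± 8.06 and 17.3 ± 7.08 CPM in WT (n = 5 each). Some Ppara tags therefore remained under the null allele, and which exons the allele lacks is not given in the sources used here. Ppard (ENSMUSG00000002250, chromosome 17, 28232700 to 28301474) had 1 or 2 counts in each GW library and 1 in each vehicle library of DA, and 3.15 and 1.60 CPM in WT with GW and with vehicle. At that depth the tags cannot check whether Ppard was deleted. Pparg, the third receptor, had 41.7, 17.7, 22.7, 27.0 and 31.2 CPM with GW and 26.4, 35.2, 28.8 and 13.2 CPM with vehicle. The treatments overlapped, with the highest value in GW library 4 and the lowest in vehicle library 40, and the log2 fold change was 0.12 ± 0.29 (SE).

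The 4 genes whose GW response passed as different between DA and WT had estimates of -0.59 to 0.01 in DA. Acot1 (ENSMUSG00000072949, chromosome 12, 84009490 to 84018371), which splits acyl-CoA into fatty acid and coenzyme A, had 22.9, 25.3, 10.3, 16.6 and 25.4 CPM with GW and 28.5, 24.1, 49.3 and 18.9 CPM with vehicle. The lowest value belonged to a GW library and the highest to a vehicle library. Its log2 fold change was -0.59 ± 0.35 (SE; 95% interval -1.29 to 0.11), against 2.78 ± 0.38 in WT. Without vehicle library 28, the highest, the value in DA was -0.23. The difference of these responses, DA minus WT, was -3.37 ± 0.51 (adjusted p = 1.66e-04, edgeR quasi-likelihood test, Benjamini-Hochberg). Acot1 has close relatives in the genome, and reads shared with them could have been divided in the deposited counts.

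Angptl4 (ENSMUSG00000002289, chromosome 17, 33773750 to 33781830) encodes a secreted inhibitor of lipoprotein lipase and is a textbook PPAR target. It had 50.02, 38.0, 64.1, 35.3 and 66.4 CPM with GW and 46.8, 53.8, 55.5 and 47.3 CPM with vehicle in DA. The GW libraries lay on both sides of the vehicle libraries, and the means were 50.8 ± 14.4 CPM with GW (SD, n = 5) and 50.8 ± 4.46 CPM with vehicle (n = 4). The log2 fold change was 0.01 ± 0.25 (95% interval -0.49 to 0.51) in DA, against 1.95 ± 0.25 in WT. The difference was -1.94 ± 0.35 (adjusted p = 0.00346, edgeR quasi-likelihood test, Benjamini-Hochberg).

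Abhd6 (ENSMUSG00000025277, chromosome 14, 8002902 to 8056763) encodes a lipase that splits monoacylglycerols. Its values were 62.5, 55.7, 39.3, 58.1 and 46.9 CPM with GW and 59.0, 68.6, 51.4 and 71.9 CPM with vehicle. They overlapped, with 2 GW libraries under the lowest vehicle library. The log2 fold change was -0.26 ± 0.21 in DA, against 1.54 ± 0.20 in WT, and the difference was -1.80 ± 0.29 (adjusted p = 6.5e-04, edgeR quasi-likelihood test, Benjamini-Hochberg).

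Reg4 (ENSMUSG00000027876, chromosome 3, 98222156 to 98236748), a secreted lectin made by goblet and enteroendocrine-lineage cells of the gut, had 162.6, 86.1, 113.7, 141.2 and 117.2 CPM with GW. With vehicle it had 242.0, 148.3, 90.5 and 138.1 CPM, so that vehicle library 1 held the highest value and GW library 15 the lowest. Its log2 fold change was -0.31 ± 0.29 in DA and 1.68 ± 0.31 in WT. The value in DA was -0.0066 without vehicle library 1 and -0.48 without vehicle library 28. The difference of -1.99 ± 0.42 passed narrowly (adjusted p = 0.0365, edgeR quasi-likelihood test, Benjamini-Hochberg). It missed the threshold without any 1 of 15 of the 19 DA and WT libraries, with an adjusted p of up to 0.189, by the same edgeR test, without vehicle library 1.

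In that model these 4 were the only genes whose response passed as different between DA and WT (0.0816% of 4902, all lower in DA), and with a term for the sets of library numbers there were 7, all lower in DA. The vehicle levels of the 4 genes in DA already lay above those of vehicle in WT by mean. Picking genes for a lower response in DA than in WT favours such levels, and low estimates in DA. Acot1 averaged 30.2 ± 13.3 CPM with vehicle in DA (SD, n = 4) and 8.96 ± 5.03 CPM with vehicle in WT (n = 5), Angptl4 50.8 ± 4.46 and 24.0 ± 7.83 CPM, and Reg4 155 ± 63.4 and 50.9 ± 13.4 CPM. Abhd6 averaged 62.7 ± 9.32 and 43.2 ± 16.2 CPM in the same vehicle groups. With GW, Acot1 reached 20.1 ± 6.53 CPM in DA and 65.1 ± 26.6 CPM in WT (n = 5 each). The vehicle levels of both genotypes enter the difference of the responses, and the share of each in it was not tested. Against the mean response of WT, D and A together, 3 of the 4 passed (0.0612%, all lower in DA). Acot1 had -2.44 ± 0.41 (adjusted p = 0.00192), Abhd6 -1.33 ± 0.24 (adjusted p = 0.00752) and Angptl4 -1.44 ± 0.29 (adjusted p = 0.0185), all by the edgeR quasi-likelihood test with Benjamini-Hochberg correction. Angptl4 missed the threshold in that comparison without GW library 4, 15 or 44 or vehicle library 11 or 28 (adjusted p up to 0.118, edgeR quasi-likelihood test, Benjamini-Hochberg).

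**Figure D2:**
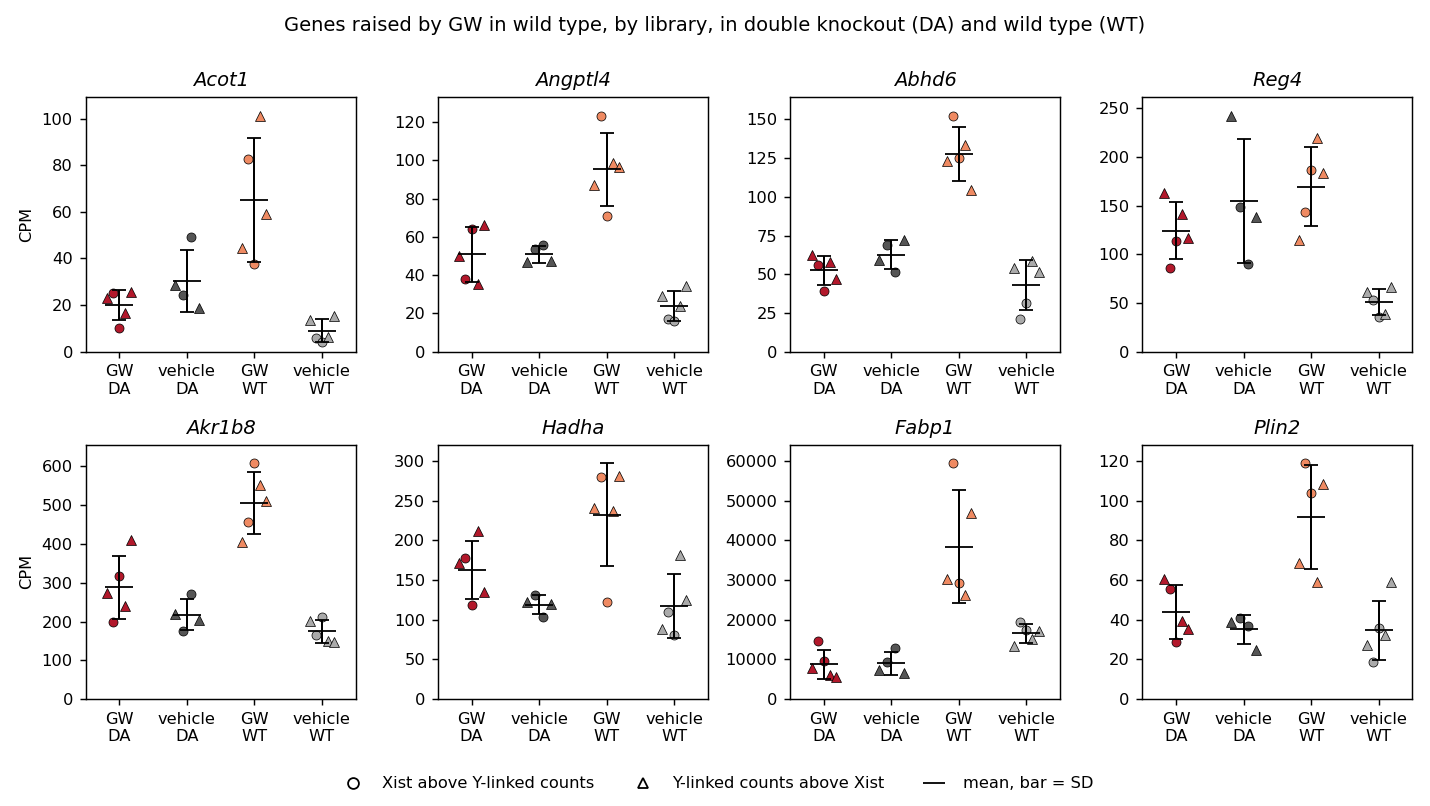
CPM of 8 genes that GW raised in WT, by library, with GW in DA, vehicle in DA, GW in WT and vehicle in WT from left to right (bars are the mean and SD, and symbols mark libraries by Xist and Y-linked counts). GW and vehicle overlap in DA for all 8 genes, while for all of them except Hadha every GW library of WT lies above every vehicle library of WT.

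Mitochondrial β-oxidation shortens fatty acids after carnitine shuttles have brought them in. Hadha, the large subunit of the trifunctional protein that carries out its last steps on long chains, had the highest estimate in DA among the genes GW raised in WT. It had 170.9, 177.2, 117.9, 211.8 and 134.7 CPM with GW and 122.0, 131.6, 102.8 and 119.2 CPM with vehicle. The GW libraries other than library 32 lay above all vehicle libraries, which made 4 of 5. Its log2 fold change was 0.45 ± 0.20 (95% interval 0.04 to 0.86), which did not pass over all genes, against 0.95 ± 0.19 in WT. Hadhb, the small subunit of the same protein, gave 0.02 ± 0.14 in DA and 0.76 ± 0.13 in WT. It ran from 110.5 to 160.1 CPM with GW and from 103.7 to 152.0 CPM with vehicle.

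Cpt1a, the outer membrane enzyme that commits fatty acids to the mitochondrion, had 33.3, 22.8, 22.7, 14.5 and 35.1 CPM with GW and 18.3, 9.27, 24.7 and 17.0 CPM with vehicle. The GW libraries 4 and 56 lay above the vehicle range and the others within it. The log2 fold change was 0.58 ± 0.32 (95% interval -0.08 to 1.23), against 0.84 ± 0.28 in WT, 1.04 ± 0.30 in A and 0.28 in D. Cpt1a passed in none of the 4 genotypes. Slc25a20, the carnitine carrier of the inner membrane, had 0.26 ± 0.31 in DA and 1.31 ± 0.28 in WT. Eci2, an isomerase for unsaturated chains, had 0.31 ± 0.19 in DA and 1.25 ± 0.17 in WT, and the long-chain dehydrogenase Acadl 0.09 ± 0.23 in DA and 0.97 ± 0.22 in WT. Acadvl, the very-long-chain dehydrogenase, and Acaa2, the thiolase, had 0.11 ± 0.24 and 0.08 ± 0.17 in DA. Pdk4, the kinase that turns pyruvate dehydrogenase off when fat is burned, had 0 counts in all 9 libraries, which allows up to 1.28 CPM over the GW libraries and 1.47 CPM over the vehicle libraries (3 counts over a group, counting error only). It had 4.17 ± 3.67 CPM with GW in WT (SD, n = 5) and 0 counts with vehicle in WT.

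As a list, 18 of 20 mitochondrial oxidation genes were tested in DA, and 0 passed. The estimates were higher with GW for 13 and lower for 5, with a median log2 fold change of 0.10, against 0.46 for the same genes in WT, 0.22 in D and 0.43 in A, and -8.17e-04 over all genes in DA. The summed level of the list was 1509 to 1921 CPM with GW and 1499 to 1809 CPM with vehicle, so that GW libraries 4 and 56 alone stood above the vehicle range. For 15 of the 18 the 95% interval in DA lay within -1 and 1.

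Peroxisomes take the very long and branched chains. Of 18 peroxisomal genes 13 were tested, 6 higher and 7 lower in DA, with a median of -0.05, against 0.44 in WT. Crot, which passes shortened chains on as carnitine esters, had -0.08 ± 0.24 in DA and 1.06 ± 0.20 in WT. Abcd3, a peroxisomal fatty acid transporter, had 0.26 ± 0.21 in DA and 0.95 ± 0.19 in WT. Acaa1b, a peroxisomal thiolase, had 4.17, 5.06, 4.14, 8.31 and 3.91 CPM with GW and 0, 1.85, 4.11 and 0 CPM with vehicle. Every GW library held a count of it, but its log2 fold change of 1.63 ± 1.22 rests on at most 4 counts a library. Pxmp4, a peroxisomal membrane protein that GW raised in A, had 0.29 ± 0.37 in DA and 1.47 ± 0.34 in A.

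Fabp1 (ENSMUSG00000054422, chromosome 6, 71199827 to 71205023) encodes the liver-type fatty acid binding protein of absorptive enterocytes. In DA it had 7949, 14642, 9623, 6155 and 5563 CPM with GW and 7312, 9306, 12986 and 6462 CPM with vehicle. The 2 highest values, one of each treatment, and the next 2 as well came from the 4 libraries with Xist above the Y-linked counts. The log2 fold change was -0.02 ± 0.30 (95% interval -0.63 to 0.59) in DA, against 1.18 ± 0.28 in WT and 1.28 ± 0.28 in A. The mean level was 8786 ± 3640.05 CPM with GW and 9017 ± 2902 CPM with vehicle in DA, against 38433 ± 14240.4 and 16578 ± 2352 CPM in WT.

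The promoter of Fabp1 is shown because it alone, of the reported genes that GW raised in WT, holds in its window a direct repeat of the kind that PPAR and retinoid X receptor pairs bind. The motif searched on both strands was AGGNCANAGGNCA, which is 2 hexamers 1 base apart, and the single hexamer AGGTCA, which can overlap it. RefSeq windows of GRCm38.p6 (the build mm10), from 250 bases before a gene's start to 50 after it, were found for 18 of the 19 genes, in 22 windows. The repeat was in 1 of these 22 windows and in 0.381% of all 32851 windows. The single hexamer was in 3 of the 22, those of Fabp1, Creb3l3 and Plin2, and in 16.3% of all windows. The Fabp1 window, chr6:71199629-71199928 on the + strand, is given 5′ to 3′ with the repeat and the other hexamer in capitals, both read on the opposite strand.
Fabp1: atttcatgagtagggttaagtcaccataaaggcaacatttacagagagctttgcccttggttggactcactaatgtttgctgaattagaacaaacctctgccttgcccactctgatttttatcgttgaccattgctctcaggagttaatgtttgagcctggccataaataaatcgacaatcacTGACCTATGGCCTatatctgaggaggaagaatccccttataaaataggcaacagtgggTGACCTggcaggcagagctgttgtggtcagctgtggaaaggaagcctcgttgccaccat
The repeat starts 67 bases before the RefSeq start of this window (71199879) and the other hexamer 9 bases before it. That start lies within the annotated gene given above, which begins further upstream. These are matches of letters, and binding was not measured.

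Plin2, the coat protein of lipid droplets, had 60.4, 55.7, 28.9, 39.5 and 35.1 CPM with GW and 38.6, 40.8, 37.01 and 24.6 CPM with vehicle. GW libraries 4 and 15 were the highest and the rest overlapped the vehicle libraries. Its log2 fold change was 0.30 ± 0.31 in DA and 1.38 ± 0.27 in WT. Me1, which makes NADPH for fat synthesis, had -0.15 ± 0.42 in DA and 2.14 ± 0.42 in WT. Creb3l3, a transcription factor of lipoprotein genes, had 0.26 ± 0.33 in DA and 1.23 ± 0.30 in WT. Retsat, a retinol saturase, had 0.14 ± 0.28 and 1.07 ± 0.25, Aldh3a2, a dehydrogenase of fatty aldehydes, 0.11 ± 0.27 and 1.22 ± 0.24, and Hsd17b11, a lipid droplet dehydrogenase, 0.08 ± 0.19 and 1.21 ± 0.18, each for DA and then WT.

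Akr1b8, an aldo-keto reductase that clears reactive aldehydes, had 273.0, 199.98, 316.4, 240.9 and 410.1 CPM with GW and 219.6, 176.1, 271.4 and 204.3 CPM with vehicle. 3 of the 5 GW libraries lay above the highest vehicle library and none below the lowest. Its log2 fold change was 0.40 ± 0.18 (95% interval 0.04 to 0.77), which did not pass over all genes, against 1.49 ± 0.17 in WT. The value in DA was 0.27 without GW library 56. The GW library was the higher one in each of the 4 sets of library numbers that hold both treatments. Those sets were chosen after seeing the data. The share of all genes with such an order was not counted, so nothing is concluded from it. The difference, -1.09 ± 0.25, missed the threshold (adjusted p = 0.0761, edgeR quasi-likelihood test, Benjamini-Hochberg). With a term for the sets of library numbers it was -1.19 and passed (adjusted p = 0.00292, the same edgeR test), as the differences of Hadhb and Hsd17b11 also did.

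Of the 20 genes higher with GW in WT, 0 passed in DA (background 0%), with 14 higher and 6 lower by estimate. Hadha and Akr1b8 were the 2 at an unadjusted p under 0.05, against 3.20% of all genes in either direction. The 95% interval covered 0 for the other 18. The median log2 fold change was 0.10 in DA (range -0.59 to 0.45), against 1.24 in WT and 0.72 in D. The upper end of the interval in DA lay below the WT estimate for all 20, and below 1 for 19. The intervals of DA and WT did not overlap for 13. The difference itself was at an unadjusted p under 0.05 for 19 of 20, all but Hadha, against 4.10% of all genes, and passed for the 4 given above. These genes were picked for their response in WT, which favours high WT values, so the gap between genotypes is larger here than it would be for genes picked otherwise. For the 14 genes that GW raised in A the picture in DA was like it: 10 higher, 4 lower, 0 passed, with a median of 0.09 in DA and 1.29 in A. They were picked for their response in A, which in the same way widens the gap between DA and A and the share of small p below. The difference between DA and A was at an unadjusted p under 0.05 for 13 of the 14, against 3.04% of all genes, and passed for 0 by edgeR's quasi-likelihood test and for 1 gene over the whole table by limma-trend. The nearest was Acot1, at -2.29 ± 0.50 (adjusted p = 0.151, edgeR quasi-likelihood test, Benjamini-Hochberg).

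**Figure D3:**
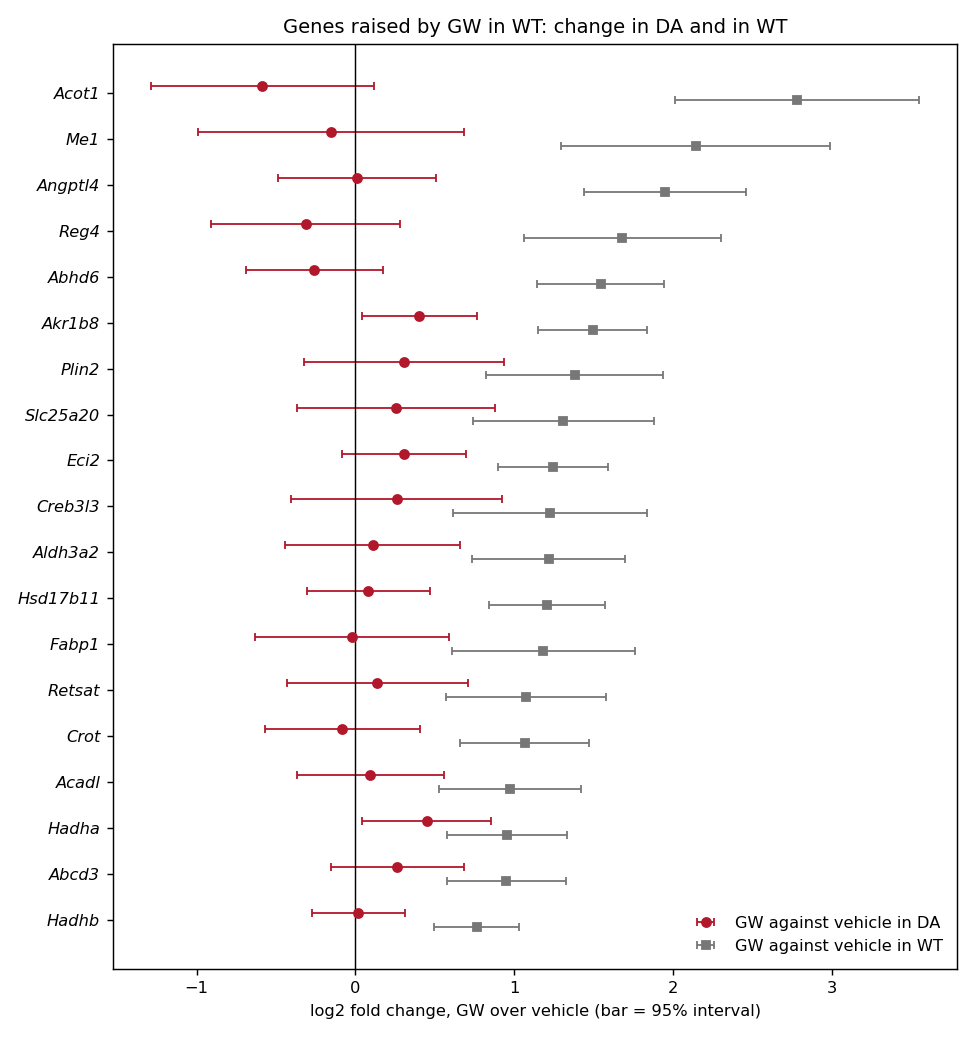
Log2 fold change of GW over vehicle (x axis, bars are 95% intervals) for 19 genes that GW raised in WT (y axis), in DA as filled circles above and in WT as squares below. The DA estimates run from -0.59 for Acot1 to 0.45 for Hadha, and those of WT all lie further right.

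The other lists of PPAR targets and lipid genes, which hold some genes already given above, showed no common direction in DA, and no member passed. Of the PPAR targets outside oxidation, 13 were tested, 6 higher and 7 lower, with a median of -0.03, against 1.26 in WT. This list was chosen with earlier results of these data known. It holds genes that passed in WT, such as Angptl4, Abhd6 and Reg4, which favours a high WT median. Chylomicron and apolipoprotein genes, which package absorbed fat, were lower by estimate for 7 of 8, with a median of -0.15, against 0.39 in WT. Their summed level was 1313 to 1911 CPM with GW and 1332 to 2092 CPM with vehicle. Fatty acid synthesis genes were higher by estimate for 8 of 9, and Me1 was the 1 lower. Their median was 0.30, against 0.39 in WT, 0.26 in D and 0.04 in A. Scd1, which puts the first double bond into saturated chains, had 100.04, 162.0, 41.4, 56.1 and 85.9 CPM with GW and 44.7, 76.0, 57.6 and 51.1 CPM with vehicle. GW libraries 4, 15 and 56 stood above the vehicle range and library 32 below it, and the log2 fold change of 0.62 ± 0.30 did not pass. It was 0.28 without GW library 15. Cholesterol synthesis genes were 12 higher and 8 lower of 20, with a median of 0.08.

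**Figure D4:**
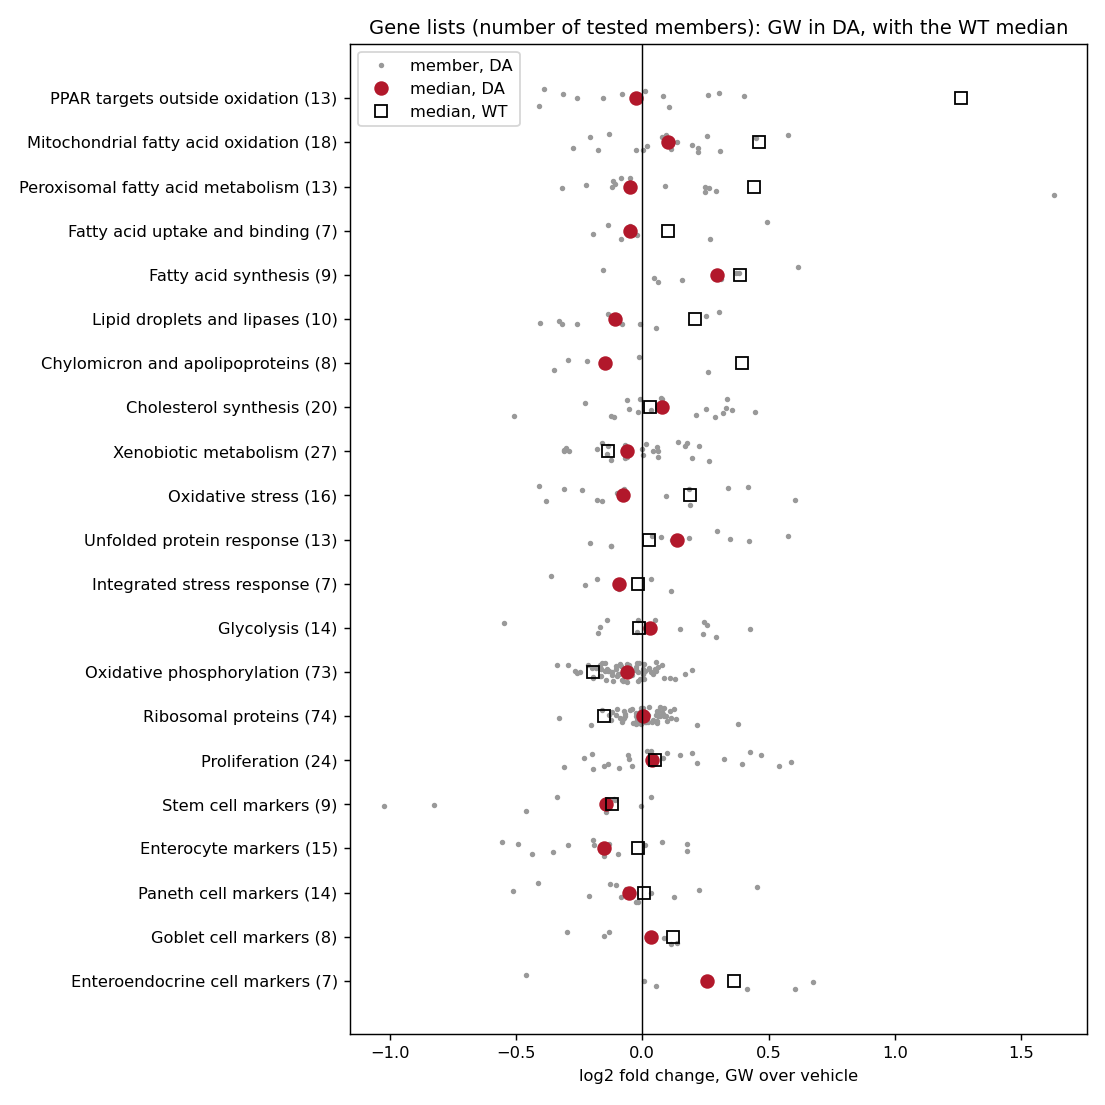
Log2 fold change of GW over vehicle (x axis) for 21 gene lists (y axis, with the number of tested members), with members in DA as small points, their median in DA as a filled circle and the median of the same genes in WT as an open square. The PPAR target, oxidation and peroxisome lists have their DA medians near 0 and their WT medians to the right, while for most other lists both medians lie near 0.

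Among markers of the crypt's cells, the one with the smallest p was Olfm4 (ENSMUSG00000022026, chromosome 14, 79984081 to 80023139), a secreted glycoprotein that marks intestinal stem cells. It had 52.1, 48.1, 51.7, 24.9 and 62.5 CPM with GW and 170.8, 64.9, 47.3 and 109.7 CPM with vehicle. The GW libraries were close to each other apart from the low library 44, and the vehicle libraries ran from 47.3 to 170.8 CPM. The log2 fold change was -1.02 ± 0.30 (95% interval -1.62 to -0.43) and did not pass over the 4902 genes. With no filter on low counts, Olfm4 passed at -1.03 (adjusted p = 0.0222 over 20192 genes, edgeR quasi-likelihood test, Benjamini-Hochberg). The log2 fold change was -0.61 without vehicle library 1 and -0.63 without both columns with the suffix 2, GW library 4 and vehicle library 1. Within libraries 1 to 36 it was -0.86 and within 37 to 60 it was -1.31. In the libraries with Y-linked counts above Xist, GW gave 52.1, 24.9 and 62.5 CPM and vehicle 170.8 and 109.7 CPM. In those with Xist above, GW gave 48.1 and 51.7 CPM and vehicle 64.9 and 47.3 CPM, so the separation of treatments was in the first set alone. Olfm4 had a negative estimate in all 4 genotypes, at -0.35 in WT, -0.73 in D and -0.85 in A, and passed in none of them. Its difference between DA and WT was -0.67 ± 0.41 (adjusted p = 0.9999, edgeR quasi-likelihood test, Benjamini-Hochberg). In bulk RNA, fewer cells of a type and less RNA per cell cannot be told apart.

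Of 16 stem cell markers 9 were tested, 1 higher and 8 lower, with a median of -0.14, against -0.12 in WT, -0.22 in A and 0.02 in D. Aqp4, a water channel of crypt base cells, had -0.82 ± 0.40, and Cdk6, a cell cycle kinase, -0.46 ± 0.32. The list summed to 318 to 455 CPM with GW and 384 to 588 CPM with vehicle, and those sums overlapped. Lgr5, the best known stem cell marker, was too low to test, with 9 counts over the GW libraries and 8 over the vehicle libraries. Proliferation genes were 14 higher and 10 lower of 24 (median 0.04), with Mki67, a protein of dividing nuclei, at 0.39 ± 0.22.

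Differentiated lineages gave no call either. Enterocyte markers were 4 higher and 11 lower of 15, with a median of -0.15 and sums of 3609 to 4620 CPM with GW and 4252 to 5679 CPM with vehicle. Dpp4, a brush border peptidase, had -0.56 ± 0.30. Paneth cell markers were 4 higher and 10 lower of 14 (median -0.05), and goblet cell markers 5 higher and 3 lower of 8 (median 0.03). Enteroendocrine markers were 6 higher and 1 lower of 7, the lower being Gcg (-0.46 ± 0.40). Their median was 0.26, against 0.36 in WT, 0.77 in D and -0.0001 in A. Their sums overlapped, at 180 to 240 CPM with GW and 138 to 219 CPM with vehicle. Chgb, a granin of hormone granules, had 50.02, 55.7, 39.3, 49.8 and 46.9 CPM with GW and 18.3, 38.9, 32.9 and 35.9 CPM with vehicle. All GW libraries lay above all vehicle libraries, the nearest by under 1 CPM, as was the case for 0.510% of all genes. The log2 fold change of 0.61 ± 0.25 did not pass.

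Of the 10 genes per direction with the smallest p in DA, given here although none passed, Bop1 had the highest estimate. Bop1, a factor in the making of the large ribosomal subunit, had 22.9, 25.3, 22.7, 39.5 and 29.3 CPM with GW and 8.13, 11.1, 14.4 and 15.1 CPM with vehicle. Its treatments did not overlap, and the log2 fold change was 1.18 ± 0.35 in DA, against -0.62 ± 0.32 in WT. R3hdm1 had 37.5, 38.0, 35.2, 51.9 and 39.1 CPM with GW and 14.2, 24.1, 24.7 and 30.3 CPM with vehicle (log2 fold change 0.78 ± 0.23 in DA and 0.57 ± 0.23 in WT). Tpr, a protein of the nuclear pore basket, had 462.7, 443.0, 423.9, 579.4 and 496.0 CPM with GW and 357.9, 411.5, 329.0 and 378.4 CPM with vehicle (0.38 ± 0.12). These also did not overlap, as was true of the deubiquitinase Usp8 (0.96 ± 0.31), of Ogdh, a subunit of the citric acid cycle's 2-oxoglutarate dehydrogenase (0.72 ± 0.24), and of the autophagy adaptor Tax1bp1 (0.43 ± 0.15). Over all 4902 genes, every GW library was above every vehicle library for 25 (0.510%). Choosing genes by p in the same libraries favours such separation.

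Txnrd1, the thioredoxin reductase of the cytosol and a target of the oxidative stress factor NRF2, had 54.2, 78.5, 49.6, 74.8 and 68.3 CPM with GW and 56.9, 29.7, 41.1 and 43.5 CPM with vehicle. Vehicle library 1 lay among the GW values and the other vehicle libraries below them. Its log2 fold change was 0.60 ± 0.19 in DA and 0.56 ± 0.18 in WT. Of the 16 oxidative stress genes tested, Txnrd1 included, 6 were higher and 10 lower, with a median of -0.08. Srpk1 (0.45 ± 0.15), Gcc2 (0.41 ± 0.14) and Pdap1 (0.45 ± 0.16) were the other 3 in the upward direction.

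In the downward direction, Triap1, an inhibitor of apoptosis induced by p53, had 52.1, 27.8, 41.4, 41.5 and 33.2 CPM with GW and 54.9, 61.2, 55.5 and 64.3 CPM with vehicle (-0.58 ± 0.19). Bsg, a chaperone of lactate transporters, had 85.4, 93.7, 107.5, 89.3 and 109.3 CPM with GW and 124.0, 163.1, 131.6 and 109.7 CPM with vehicle (-0.44 ± 0.16). Both had every GW library below every vehicle library, Bsg by under 1 CPM, and so did Cnot6, a deadenylase of messenger RNA (-0.88 ± 0.35). Over all 4902 genes this held for 17 (0.347%), and the choice by p favours it. Besides Olfm4, the others were Osgep (-1.19 ± 0.40), Calm3 (-0.70 ± 0.26), Rpp25l (-0.64 ± 0.24), Exosc8 (-0.38 ± 0.14), Klkb1 (-1.16 ± 0.45) and Pinx1 (-0.66 ± 0.26). Their treatments overlapped, and all of them were chosen by p from 4902 genes, so their estimates are the extremes of a distribution in which 3.20% of genes were at an unadjusted p under 0.05.

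**Figure D5:**
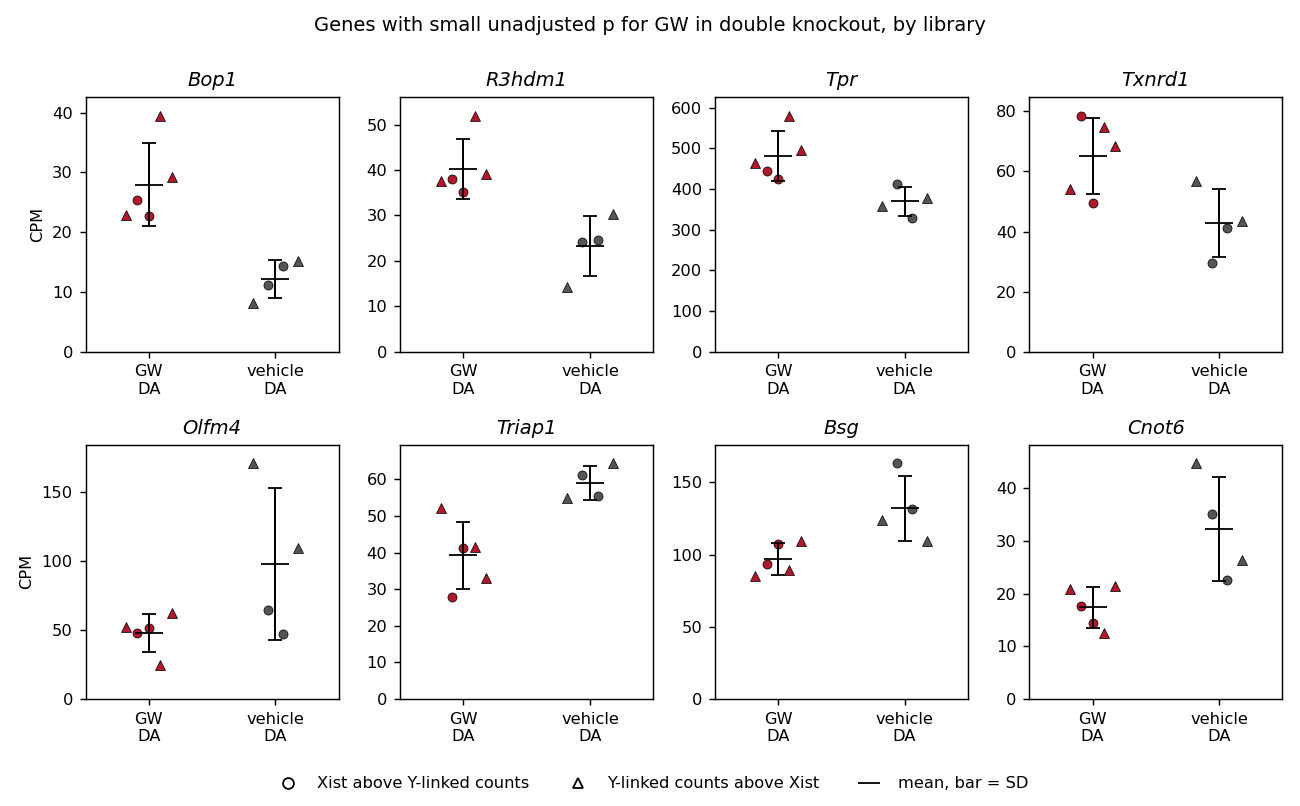
CPM in DA (y axis) by library for 8 of the genes with the smallest unadjusted p, none of which passed, with GW left of vehicle (bars are the mean and SD, and symbols mark libraries by Xist and Y-linked counts). GW and vehicle do not overlap for Bop1, R3hdm1, Tpr, Triap1, Bsg and Cnot6, and overlap for Txnrd1 and Olfm4. The choice by p favours such separation.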

How the data were processed

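The deposited table holds whole-number counts by Ensembl gene identifier, one column for a high-throughput 3′ digital gene expression library of each sample. Per the submitters' processing notes, the authors worked with the mouse build mm10 and with edgeR 3.26.8, R 3.6.2 and Salmon 1.1.0, which estimates counts. The annotation release, the use of molecular identifiers and any filter are not given in the sources used here. Of 57 columns 37 were used, matched to groups by the names' treatment and genotype letters. The 20 not used were 19 with the letters KD and 1 of 4 named GW in D, since the unassigned sample could not be told apart among those, so it may be among the 3 used. No column carries a replicate number, and 4 used columns carry a suffix 2 that no label explains. Of 54352 identifiers, 54179 had a symbol in the GENCODE annotation of mm10.

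From the counts, genes were filtered with filterByExpr by group, scaled by TMM and modelled jointly for the 8 groups in edgeR 4.0.16 (glmQLFit, glmQLFTest; R 4.3.3). The shared model estimates spread from all 37 libraries, because DA holds 9. Adjustment was by Benjamini-Hochberg over 4902 genes within a comparison, with a threshold of 0.05. Log2 fold changes use edgeR's prior count of 0.125, and SE and 95% intervals come from the same fit; 18 genes at 0 in any of the 8 groups have none. CPM are per 1e+06 counts of a library, unadjusted by TMM. Totals were 353347 to 577557 counts over the 37 libraries. Alternatives were other scalings, DESeq2 1.42.0, limma-trend 3.58.1 (prior count 2), no filter, a CPM of at least 20 in at least 4 libraries, the groups of a contrast alone, each library left out, the suffix 2 columns left out, and library number runs (within each, or as a term). Terms for sex by Xist and Y-linked counts and for sets of library numbers were chosen after seeing the data. A set is a run of the used numbers without a gap of 3 or more. The fit was tested on simulated data.

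Members, gene lists and the rule for named genes were chosen with earlier results of these data known. The rule takes the receptors, 9 reference genes of lipid metabolism and stem cells, genes that passed in WT or A, the 10 smallest p per direction in DA whose mean log2 CPM was 4 or more (no predicted genes), up to 4 members per list by p, and genes that passed in a difference or under an alternative. Some genes enter the totals and are not reported here.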

Additional observations from a re-analysis of the deposited data

Results flagged for a closer look

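In 4 cases a library of DA stood apart from the rest of its treatment for a gene named by the rule, out of 110 sets of values (55 genes in both treatments), where chance gives about 1 in 20. Ndufs8, a subunit of respiratory complex I, had 296.2 CPM in GW library 15, and 361.8 to 388.6 CPM in the other GW libraries. Pxmp4 had 10.3 CPM in GW library 32, and 22.8 to 27.3 CPM in the others. R3hdm1 had 51.9 CPM in GW library 44, and 35.2 to 39.1 CPM in the others. Nr1h4, the bile acid receptor FXR, had 32.2 CPM in vehicle library 40, and 44.5 to 45.2 CPM in the others.

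The response to GW differed between genotypes past the threshold for 4 genes, all lower in DA. Against WT the log2 differences were -3.37 for Acot1, -1.80 for Abhd6, -1.94 for Angptl4 and -1.99 for Reg4. Against the mean of WT, D and A they were -2.44 for Acot1, -1.33 for Abhd6 and -1.44 for Angptl4.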

How the results depend on the processing

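In DA the count of genes past the threshold was 0 in both directions under every alternative run except DESeq2, which gave 1 higher, and no filter on low counts, which gave 5 higher and 5 lower of 20192 genes. Of those 10, 8 are pseudogenes or predicted genes, and another is Olfm4. Olfm4 had -1.03 there (adjusted p = 0.0222, edgeR quasi-likelihood test, Benjamini-Hochberg). Leaving out each library in turn gave 0 to 0 in DA. For DA minus WT, the 4 lower became 7 with DESeq2, 12 with no filter, 2 within libraries 1 to 36, 0 within 37 to 60, 7 with terms for sex and library number, 7 with a term for the sets of library numbers, and 3 to 5 with a library left out; no filter also gave 8 higher. For DA minus the mean of the others, the 3 lower became 14 with no filter, 0 within libraries 1 to 36, 0 within 37 to 60, 7 with the set term and 2 to 3 with a library left out; DESeq2 gave 1 higher and no filter 4. For DA minus A, no filter gave 2 higher and 6 lower, limma-trend 1 lower, the set term 1 lower, and libraries 37 to 60 gave 1 higher and 1 lower. For DA minus D, DESeq2 gave 1 higher, and no filter 5 higher and 4 lower. Leaving out a library gave 0 to 0 for both of these. The runs of library numbers hold fewer libraries; no other cause was tested.

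Of the genes named, 11 turned sign for GW in DA under an alternative, all with an interval that covered 0. Without the suffix 2 columns Acadl was -0.00135, Acadvl -0.0502 and Pparg -0.0270. Within libraries 37 to 60 Acadl was -0.0615, Acadvl -0.0442 and Acot1 0.155, and with limma-trend Angptl4 was -0.0353. Within libraries 1 to 36 Crot was 0.0444, Fabp1 0.159, Hadhb -0.0890, Me1 0.0336, Pparg -0.1045 and Pxmp4 -0.0173. With a term for library number Fabp1 was 0.0239 and Hadhb -0.00728, with one for sex Fabp1 was 0.00995, and with both Fabp1 was 0.00654 and Hadhb -0.00618. With the set term Acaa2 was -0.001076, Angptl4 -2.04e-04 and Hadhb -0.0350. With a library left out, Acadvl ran from -0.0124 to 0.256, Angptl4 from -0.116 to 0.127, Crot from -0.138 to 0.0252, Fabp1 from -0.313 to 0.242, Hadhb from -0.0710 to 0.0943, Me1 from -0.461 to 0.0225 and Pparg from -0.111 to 0.301. No paired analysis was possible because the columns of the count table carry no replicate number, and no label says that library numbers mark shared cultures. The set term, used as a block in its place, left DA with 0 calls by the edgeR test, where 230 genes had an unadjusted p below 0.05.

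At this depth Ppard, Pdk4 and Lgr5 were not tested.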

Other observations

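Respiratory chain genes were lower by estimate for 51 of 73 in DA, with a median log2 fold change of -0.06, against -0.20 in WT, -0.08 in D and -0.01 in A. Ndufv2, a complex I subunit, had 364.7, 379.7, 335.0, 402.9 and 453.0 CPM with GW and 451.4, 465.3, 487.3 and 459.7 CPM with vehicle (-0.27 ± 0.11). GW library 56 reached into the vehicle range and the other 4 GW libraries lay below it. The 74 ribosomal protein genes were 39 higher and 35 lower, with a median of 0.0031, against -0.15 in WT. None of these genes passed in DA.

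Genes of protein folding in the endoplasmic reticulum were higher by estimate for 10 of 13, and 0 passed. Their median was 0.14, against 0.03 in WT, 0.12 in D and -0.08 in A. Pdia3, a disulfide isomerase, had 156.3, 124.0, 122.0, 149.5 and 195.3 CPM with GW and 89.5, 114.9, 90.5 and 105.9 CPM with vehicle (0.58 ± 0.22). Its treatments did not overlap, as for 0.510% of all genes in this direction. Xbp1, a transcription factor of that response, had 0.42 ± 0.26. Detoxification genes were 12 higher and 15 lower of 27 (median -0.06), regenerative epithelium genes 7 higher and 3 lower of 10 (median 0.15), and the 5 tested inflammatory targets of NF-kB all lower (median -0.34), with 0 passed in each list.

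Of other nuclear receptor genes, Nr1h4 (FXR) had 29.2, 40.5, 20.7, 24.9 and 25.4 CPM with GW and 44.7, 44.5, 45.2 and 32.2 CPM with vehicle (-0.58 ± 0.27, against 0.50 ± 0.26 in WT). Abcg5, a sterol exporter and target of the LXR receptors, had 20.8, 38.0, 16.5, 27.0 and 11.7 CPM with GW and 14.2, 12.98, 8.22 and 15.1 CPM with vehicle (0.81 ± 0.35, against 0.50 ± 0.29 in WT). All but GW library 56 lay above its vehicle range. Of the 5 LXR targets tested, Abcg5 included, 3 were higher and 2 lower by estimate in DA. Their median log2 fold change was 0.11, against -0.14 in WT, and Abcg5 had the highest estimate of them. Neither Nr1h4 nor Abcg5 passed, nor did any other tested LXR target.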
